A study of Homo sapiens with 16 samples.

Results

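A set of 9 keratin genes and nestin, all members of the intermediate filament family, was described in lung metastases of a human melanoma line grown in mice fed 1 of 2 diets, high fat or ketogenic, with or without kinase inhibitors. The 10 genes were KRT6A, KRT6B, KRT7, KRT8, KRT10, KRT18, KRT19, KRT80, KRT81 and NES, taken by symbol from a table of 26475 genes. They are 9 of the 56 keratin symbols in the table, with NES added. KRT6B and NES were chosen by their measured response, a diet-dependent inhibitor effect in these same libraries, so their values on each diet are a description with no test. All 10 passed the filter on low counts, as 16012 of the 26475 genes did. Each library's level is given in CPM, the count per 1 M (M, mega) of library size, with library sizes scaled by TMM, edgeR's trimmed mean of M-values.

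All groups share 1 established line, A375 MA2-Luc, a human melanoma cell that carries luciferase. Cells, 250000 of them, were given by the retro-orbital route to NSG mice, which lack mature lymphocytes, and polyA RNA came from metastases in the lung. The 4 groups had 4 libraries each: high fat diet with the treatment given as none, high fat diet with inhibitors of BRAF kinase and of MEK 1/2, ketogenic diet with none, and ketogenic diet with the inhibitors. Inhibitors were given by gavage 3 times a week for 5 weeks. No vehicle is named for the controls, so gavage and inhibitors cannot be told apart. The design text also speaks of culturing the line, and it calls the 4 libraries of a group biological replicates without saying that each came from its own mouse. P-values therefore measure the spread between libraries. "Untreated" and "treated" below refer to the inhibitors.

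Intermediate filaments are rope-like polymers that give cells mechanical strength. Keratins form them as obligate pairs of a type I and a type II chain, and the type II chains KRT8 and KRT7 with the type I chains KRT18 and KRT19 make up the filaments of simple epithelia. KRT6A and KRT6B are type II keratins of wounded and rapidly dividing epidermis, KRT10 is the type I keratin of differentiating epidermis, KRT80 is a type II keratin of differentiating epithelia and KRT81 is a type II keratin of hair. Nestin cannot form filaments alone and polymerises with vimentin, and it marks neural stem cells, neural crest derivatives and many melanomas.

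Libraries held 37.1 M to 77.3 M estimated counts, of which ribosomal RNA genes took 21.7 to 50% in untreated and 15.01 to 19.97% in treated high fat libraries, and 15.2 to 33.7% in untreated and 4.10 to 8.37% in treated ketogenic ones. This share was lower in every treated library than in any untreated one of its diet, and its part in the inhibitor comparisons was not tested. With the ribosomal RNA genes removed before scaling, none of the 52 results recomputed changed direction or side of the threshold. The line's own markers were present throughout, with SOX10 at 726 to 934 CPM and VIM at 1960 to 3398 CPM. Of 6 defining lung epithelial genes, SFTPC and SCGB1A1 were at 0 in 14 of 16 libraries and none of the others (SFTPB, NKX2-1, EPCAM, CDH1) exceeded 0.746 CPM. The summed level of the 22 lung epithelial markers was 15.9 to 21.2 CPM in untreated high fat libraries, 7.81 to 11.2 in treated high fat, 13.1 to 14.1 in untreated ketogenic and 9.11 to 13.96 in treated ketogenic libraries. The 9 endothelial markers summed to 16.9 to 36.5, 71.9 to 82.4, 27.2 to 37.7 and 28.1 to 48.3 CPM in the same order, and the 10 fibroblast markers to 71.4 to 98.4, 43.3 to 70.05, 51.2 to 81.7 and 44.3 to 70.6 CPM. The 10 keratinocyte markers stayed between 1.98 and 4.57 CPM. Whether such cells contributed to any keratin value was not tested, and in bulk samples fewer cells of a type and less RNA per cell cannot be told apart. The host's lung cells are mouse cells, while the build is human, and the handling of mouse reads was not given. The marker sums can therefore come from the line or from mouse reads, which cannot be told apart here.

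Several of these genes are near-copies of a neighbour, and their reads are shared. The paralogs below are shown because they decide how far KRT6A, KRT6B and KRT81 can be read as separate genes. All are coding bases from the reference genome (GRCh38, chromosome 12, GENCODE 29 gene models), 60 bases long and inside 1 exon, chosen as the stretch where the copies differ most with at most 20 mismatches. Capitals in the first line of a set mark every base at which another line differs, and capitals in the other lines mark bases that differ from the first line. The KRT6 set lies in exon 2 on the minus strand, at chr12:52450439-52450498 (KRT6B), chr12:52491555-52491614 (KRT6A, 9 mismatches) and chr12:52472099-52472158 (KRT6C, 4 mismatches).
KRT6B: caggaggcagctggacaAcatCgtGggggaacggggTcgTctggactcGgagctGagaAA
KRT6A: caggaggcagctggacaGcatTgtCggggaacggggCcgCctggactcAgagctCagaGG
KRT6C: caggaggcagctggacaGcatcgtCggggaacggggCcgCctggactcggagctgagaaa
Outside such stretches the copies run together. KRT6B and KRT6A were identical at 1650 of 1692 coding bases (97.5%) and KRT6B and KRT6C at 1667 (98.5%), with a longest common run of 269 bases. The first 150 bases of the run that KRT6B shares with KRT6A (exon 1, chr12:52451782-52451931) carry no capitals, since no base differs.
KRT6B and KRT6A, shared: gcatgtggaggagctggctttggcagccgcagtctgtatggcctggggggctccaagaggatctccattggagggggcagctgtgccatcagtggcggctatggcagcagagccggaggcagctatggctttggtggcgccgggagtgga

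The hair keratins KRT81, KRT86 and KRT83 form the second set. Their windows lie at chr12:52286434-52286493 (KRT81, exon 9, minus strand), chr12:52308404-52308463 (KRT86, exon 11, plus strand, 20 mismatches) and chr12:52314759-52314818 (KRT83, exon 9, minus strand, 4 mismatches).
KRT81: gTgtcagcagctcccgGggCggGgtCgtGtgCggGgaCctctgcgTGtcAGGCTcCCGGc
KRT86: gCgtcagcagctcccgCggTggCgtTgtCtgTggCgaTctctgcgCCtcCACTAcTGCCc
KRT83: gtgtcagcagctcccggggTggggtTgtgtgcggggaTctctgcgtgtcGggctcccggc
KRT81 and KRT86 share a run of 605 coding bases, and KRT81 and KRT83 one of 95. The first 150 bases of the run common to KRT81 and KRT86 (exon 1 of KRT81, chr12:52291256-52291405) again hold no difference.
KRT81 and KRT86, shared: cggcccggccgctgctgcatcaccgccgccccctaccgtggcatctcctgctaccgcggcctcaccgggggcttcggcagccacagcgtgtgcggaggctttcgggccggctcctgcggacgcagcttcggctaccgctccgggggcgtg

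The read sharing could be seen in the table itself. RSEM splits a read that fits several genes, which leaves fractional counts. Of 75-base windows of the principal transcript, 34.9% in KRT6B, 26.2% in KRT6A and 34.1% in KRT81 also occurred in another gene of the table, mainly KRT6C for the KRT6 genes and KRT86 for KRT81. Counts of KRT6A were fractional in 11 of 16 libraries, of KRT6B in 14 and of KRT81 in 8 (values more than 0.025 from a whole number). Summed over KRT6A, KRT6B, KRT6C and KRT5 they were whole in 16 of 16 libraries, as was the sum of KRT81, KRT83 and KRT86. KRT8 and KRT18, a filament pair from different keratin types, were each fractional in 15 of 16 libraries, and their sum was whole in 14. Of their 75-base windows, 3.02% in KRT8 and 19.7% in KRT18 occurred in the other gene, on the opposite strand. Their gene bodies overlap head to head by 1084 bases on opposite strands (chr12:52948871-52949954), and the strand setting of the counting is not given in the sources used here. KRT7, KRT10, KRT19 and NES had whole counts in all 16 libraries and no 75-base window in common with another gene of the table.

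**Figure D1:**
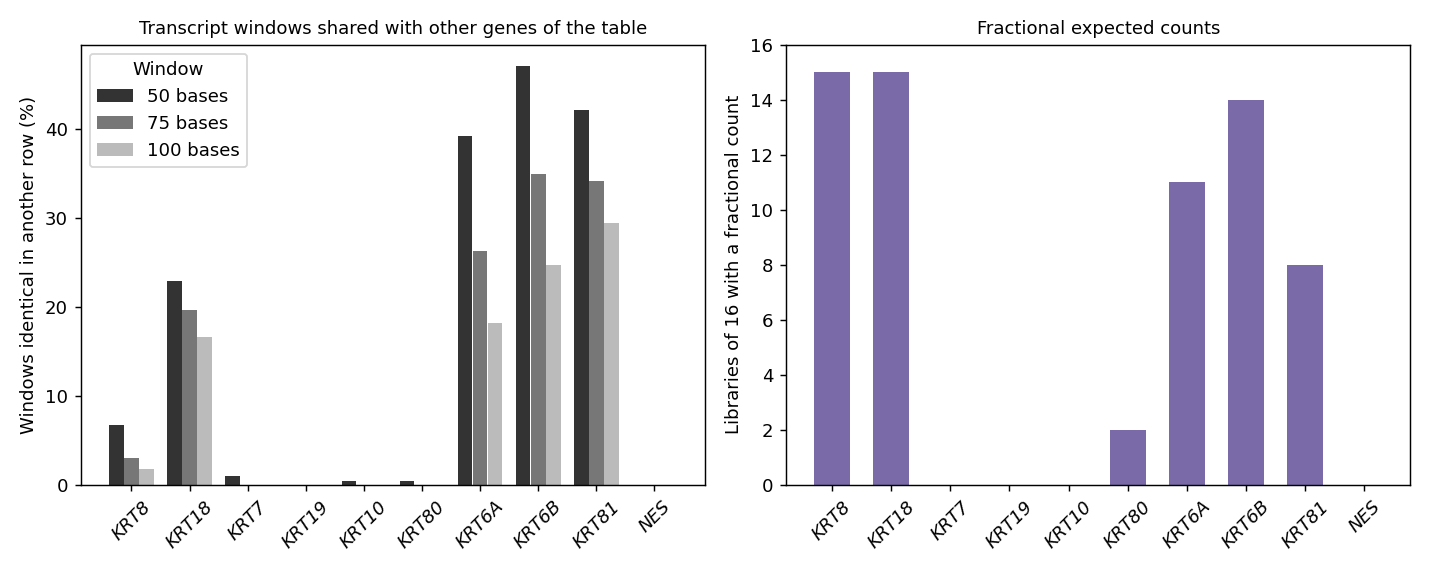
Left, percent of 50-, 75- and 100-base windows of each gene's principal transcript that occur in another gene of the table; right, number of the 16 libraries in which the gene's estimated count was fractional. KRT6A, KRT6B and KRT81 share 26.2 to 34.9% of their 75-base windows and KRT18 19.7%, while KRT7, KRT10, KRT19 and NES share none and are whole in all 16 libraries.

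Per kilobase of principal transcript, the 10 genes spanned a wide range of levels. Group means in CPM per kb were 76.1 to 86.0 for KRT18 (chr12:52948871-52952901), 56.8 to 98.4 for NES (chr1:156668763-156677397), 21.0 to 26.6 for KRT10 (chr17:40818117-40822595) and 4.10 to 18.4 for KRT8 (chr12:52897187-52949954). The type III filament protein vimentin, partner of nestin, had 1181 to 1502 CPM per kb. KRT6B (chr12:52446651-52452126) ranged from 0.396 to 3.40, while KRT7 (chr12:52232520-52252186) and KRT81 (chr12:52285913-52291534) had a group mean above 1 CPM per kb only in the untreated high fat group. KRT80 (chr12:52168996-52192000), KRT19 (chr17:41523617-41528308) and KRT6A (chr12:52487174-52493257) stayed below 0.4 CPM per kb in every group.

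**Figure D2:**
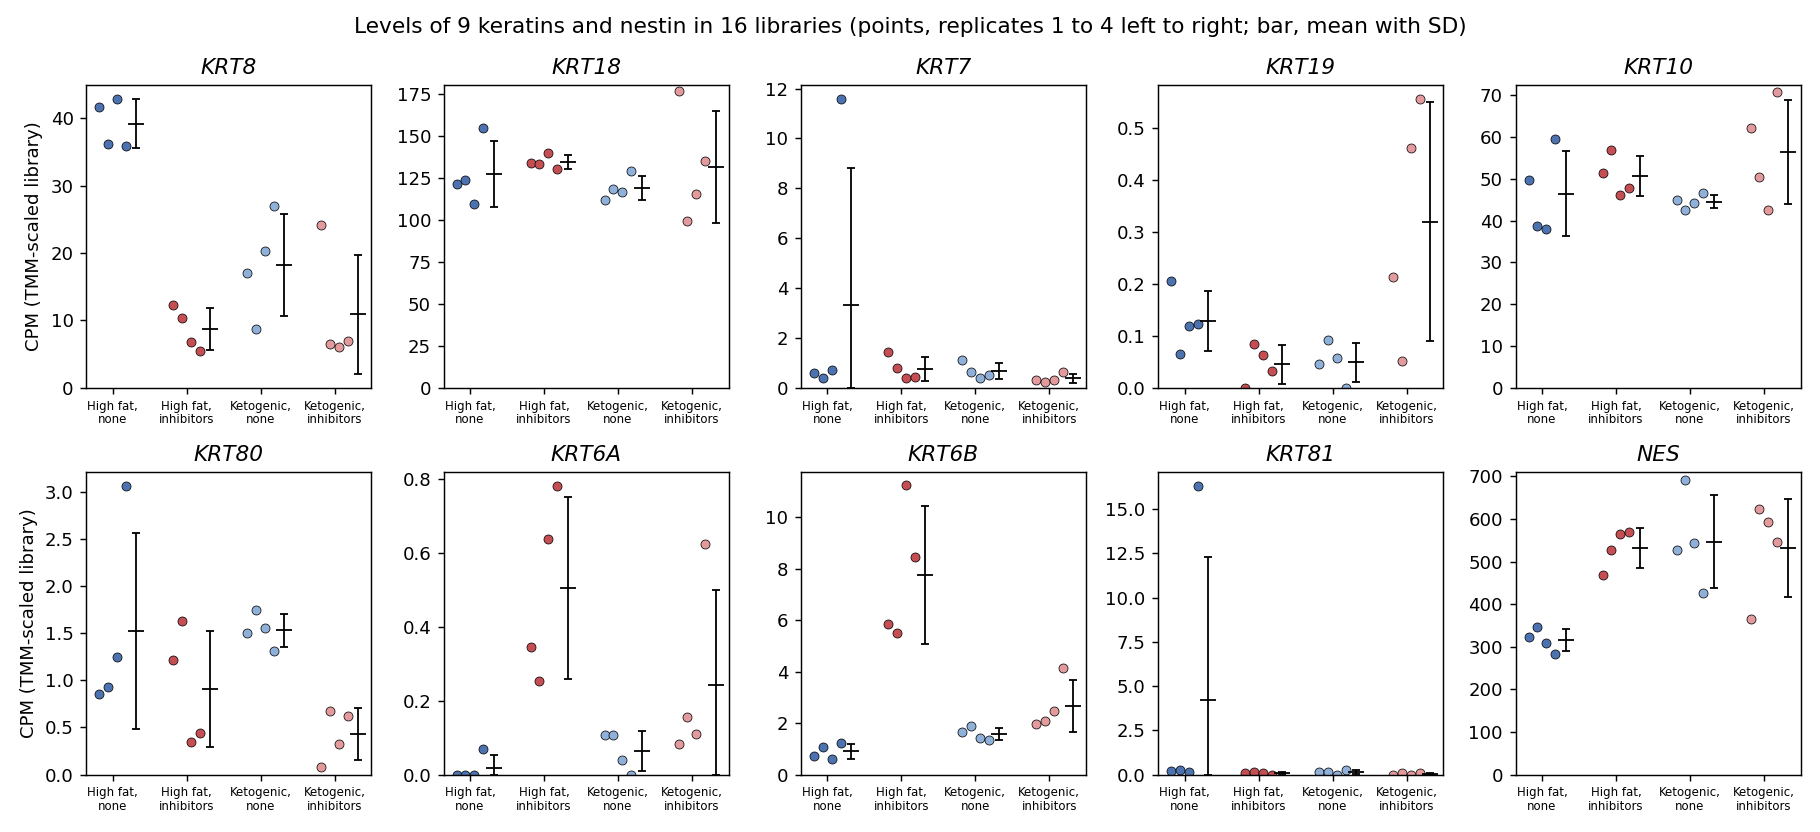
Level of each gene in CPM on TMM-scaled library sizes, 1 point per library (replicates 1 to 4 from left to right), with the mean and SD of 4 beside the points; SD bars stop at 0 and each panel has its own axis. KRT8 is highest and NES lowest in the untreated high fat group, and a single library stands out in KRT7 (11.6 CPM) and KRT81 (16.3 CPM).

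KRT8, the type II chain of the simple epithelial pair, fell with the inhibitors on the high fat diet. It stood at 41.7, 36.2, 42.9 and 35.9 CPM in untreated high fat replicates 1 to 4, and at 12.3, 10.4, 6.77 and 5.45 CPM in the treated ones. Every treated library lay below every untreated one, and the means were 39.2 ± 3.65 and 8.72 ± 3.16 CPM (SD, n = 4 each). The log2 fold change was -2.17 (SE 0.45, edgeR adjusted p = 0.00178). In this comparison 4 of the 7 tested lung epithelial markers fell and 0 rose, where 21.7% of all genes fell and 42.3% changed. An example is LAMP3, a lysosomal protein also found in type II pneumocytes, which fell from 3.67 to 0.654 CPM. Of 9 tested fibroblast markers 2 fell and 1 rose, and their sums (given above) did not overlap between untreated and treated libraries. Of 5 tested endothelial markers 1 rose and 0 fell, and of 6 tested leukocyte markers 3 rose and 1 fell. The leukocyte sums overlapped, at 45.4 to 61.5 CPM in untreated and a lower 39.3 to 54.3 CPM in treated libraries. The whole 22-gene lung list summed to at most 21.2 CPM, and the defining markers were at or near 0 as given above. Such sums set no bound on the KRT8 of other cells. The part of any of these lists in the KRT8 result was not tested.

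On the ketogenic diet KRT8 had 17.0, 8.78, 20.3 and 27.0 CPM untreated and 24.2, 6.51, 6.06 and 6.93 CPM treated. Treated replicate 1 lay among the untreated libraries, while the other 3 lay below all of them. The log2 fold change was -0.74 (SE 0.43, edgeR adjusted p = 0.388), and without that library it was -1.49 with an edgeR adjusted p of 0.0266. Between the diets without inhibitors KRT8 differed by -1.10 (SE 0.43, edgeR adjusted p = 0.0998), ketogenic minus high fat. This difference passed with limma voom (adjusted p = 0.000860), with only the groups compared (edgeR adjusted p = 0.0313) and when treated ketogenic replicate 1 was left out (edgeR adjusted p = 0.0154). All 4 untreated ketogenic libraries lay below the untreated high fat libraries.

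KRT18, the type I partner, did not follow. It had 122, 123, 109 and 155 CPM in untreated and 134, 133, 140 and 130 CPM in treated high fat libraries. The ketogenic libraries held 112, 118, 116 and 129 CPM untreated and 176, 99.3, 115 and 135 CPM treated. Treated and untreated libraries overlapped on each diet, and the inhibitor effects were 0.08 (SE 0.14, edgeR adjusted p = 0.681) on the high fat and 0.15 (SE 0.14, edgeR adjusted p = 0.619) on the ketogenic diet.

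The ratio of KRT8 to KRT18 in CPM was also compared between groups. It was 0.232 to 0.393 in untreated high fat libraries, 0.0418 to 0.0917 in treated high fat, 0.0742 to 0.209 in untreated ketogenic and 0.0513 to 0.137 in treated ketogenic libraries. On the high fat diet the ratio was 5.02-fold lower with inhibitors, lower in 4 of 4 libraries than any untreated one (exact two-sided permutation of library labels, p = 0.0286, the smallest that 70 assignments allow; 0.0571 adjusted over 4 comparisons). The untreated ketogenic ratio was 2.17-fold below the untreated high fat ratio (exact p = 0.0286, adjusted 0.0571). On the ketogenic diet the inhibitors gave a 2.03-fold lower ratio (exact p = 0.0571, adjusted 0.0762), and the treated groups of the 2 diets differed by 0.19 on the log2 scale (exact p = 0.686). The ratio was chosen for testing after the values had been seen, and none of the 4 adjusted values was under 0.05. KRT8 and KRT18 also share reads, as given above, and the part of this in the ratio was not tested.

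**Figure D3:**
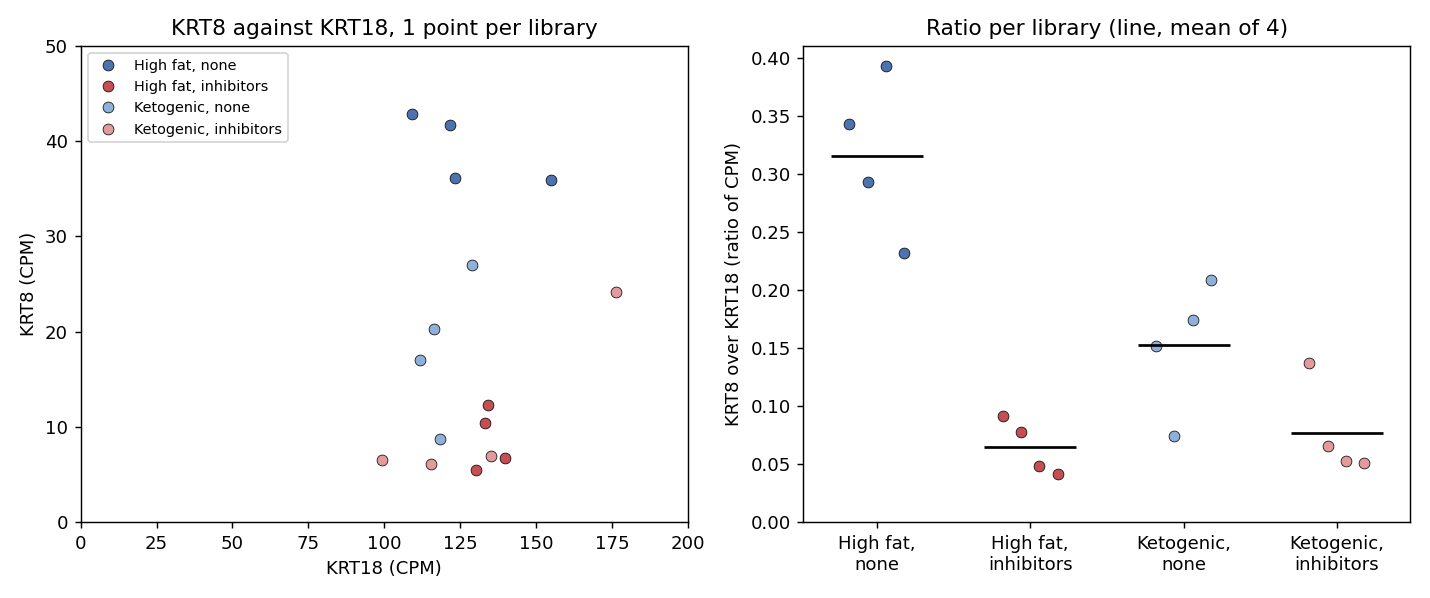
Left, KRT8 against KRT18 in CPM, 1 point per library; right, their ratio per library with the mean of 4 as a line. The untreated high fat libraries sit at ratios of 0.232 to 0.393, above all other libraries, while KRT18 spans similar values in every group.

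The other simple epithelial keratins were scarce. KRT7, a type II keratin of ducts and glands, had 0.585, 0.411, 0.718 and 11.6 CPM in untreated high fat replicates 1 to 4. All other libraries held 0.241 to 1.46 CPM, so 1 library stood alone. The inhibitor effect on the high fat diet was -2.13 (SE 0.89, edgeR adjusted p = 0.0660) with that library, replicate 4, and 0.42 without it. Leaving out replicate 1, 2 or 3 of the same group instead brought the edgeR adjusted p to between 0.0306 and 0.0440. On the ketogenic diet the effect was -0.82 and did not pass the test.

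KRT19, the smallest keratin and a type I chain of simple epithelia, was counted 0 to 32 times per library. It had 0.0650 to 0.205 CPM in untreated high fat libraries, 0 to 0.0846 in treated high fat and 0 to 0.0918 in untreated ketogenic ones. Treated ketogenic libraries held 0.213, 0.0516, 0.461 and 0.556 CPM, of which 3 lay above all libraries of the other groups. The ketogenic inhibitor effect was 2.57 (SE 0.81, edgeR adjusted p = 0.109), and the high fat effect was -1.46 (SE 0.85, edgeR adjusted p = 0.172). Neither passed the test at this depth.

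Of the epidermal keratins, KRT10 varied little. Its 16 libraries ran from 37.9 to 70.7 CPM, with group medians of 44.2, 49.6, 44.5 and 56.3 CPM in the order untreated and treated high fat, untreated and treated ketogenic. Its inhibitor effects were 0.12 (SE 0.15) on the high fat and 0.34 (SE 0.15) on the ketogenic diet, and neither passed edgeR's test. Limma voom called the high fat effect (0.27, adjusted p = 0.0261). The mean over the diets, 0.23 (edgeR adjusted p = 0.0988), passed with limma voom (0.0363), on library size alone (0.00920), and without untreated high fat replicate 4 (0.0248) or treated ketogenic replicate 3 (0.0341).

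KRT80 was lowest in treated ketogenic libraries, at 0.0818, 0.671, 0.329 and 0.625 CPM. The untreated ketogenic libraries held 1.5, 1.74, 1.56 and 1.31 CPM, all above them. On the high fat diet there were 0.853, 0.931, 1.24 and 3.06 CPM untreated and 1.22, 1.62, 0.351 and 0.439 CPM treated, which overlapped. The effects were -1.83 (SE 0.58, edgeR adjusted p = 0.112) on the ketogenic and -0.75 (SE 0.56, edgeR adjusted p = 0.291) on the high fat diet, where leaving out untreated replicate 4 gave -0.15 and leaving out treated replicate 2 gave -1.19. With DESeq2 and with limma voom the ketogenic effect passed the test (adjusted p = 0.0292 and 0.0321). Averaged over the diets KRT80 fell by 1.29 on the log2 scale (SE 0.40, edgeR adjusted p = 0.0188).

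KRT6B, the wound keratin picked for its diet-dependent response, had 0.727, 1.06, 0.598 and 1.22 CPM in untreated and 5.84, 5.51, 11.2 and 8.44 CPM in treated high fat libraries. Untreated ketogenic libraries held 1.65, 1.88, 1.44 and 1.36 CPM, and treated ones 1.96, 2.07, 2.46 and 4.13 CPM. Within each diet all treated libraries lay above all untreated ones. The log2 difference was 3.10 (SE 0.31) on the high fat and 0.74 (SE 0.29) on the ketogenic diet, and the effect on the ketogenic minus that on the high fat diet was -2.36 (SE 0.42). Untreated libraries were higher on the ketogenic than on the high fat diet by 0.81 (SE 0.30), while treated ones differed by -1.55 (SE 0.29), lower on the ketogenic diet. The mean effect over both diets was 1.92 (SE 0.21, edgeR adjusted p = 1.94e-05). This mean is orthogonal to the contrast that picked the gene but comes from the same libraries and spread estimate, so its p is no independent evidence.

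Its copy KRT6A had 0, 0, 0 and 0.0700 CPM in untreated high fat libraries, 4.49 estimated counts in all, and 0.346, 0.254, 0.639 and 0.781 CPM in treated ones. KRT6A rose there by 4.59 (SE 1.02, edgeR adjusted p = 0.00227), a size that rests on the counts of untreated replicate 4, since the other 3 were at 0. Ketogenic libraries held 0.108, 0.107, 0.0390 and 0 CPM untreated and 0.0818, 0.155, 0.110 and 0.625 CPM treated, with an effect of 1.81 (SE 0.87, edgeR adjusted p = 0.273). Because reads of KRT6A and KRT6B cannot be told apart over long runs, KRT6A may hold counts assigned from KRT6B, and its value as a separate gene is uncertain. With KRT6A, KRT6B and KRT6C summed into 1 row, the log2 difference was 3.10 (SE 0.33) on the high fat and 0.81 (SE 0.31) on the ketogenic diet. This sum was still fractional in 11 of 16 libraries, and whole in all 16 only with KRT5 added. A fit with KRT5 added was not run.

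KRT81, the hair keratin, was near 0 in all but 1 library. Untreated high fat replicates 1 to 3 had 0.221, 0.282 and 0.168 CPM and replicate 4 had 16.3 CPM, or 932 of the group's 966 estimated counts. The other 12 libraries held 0 to 0.267 CPM. The inhibitor effect on the high fat diet was -5.49 (SE 1.53, edgeR adjusted p = 0.0107) and the diet difference without inhibitors -4.94 (SE 1.48, edgeR adjusted p = 0.0400). Without replicate 4 these were -1.25 and -0.69 with edgeR adjusted p of 0.319 and 0.664, so both calls rested on 1 library. The mean inhibitor effect, -3.68 (SE 1.17, edgeR adjusted p = 0.0232), became -1.57 and was likewise lost.

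In the same library, and picked after its values were seen, the hair keratin KRT86 had 6.79 CPM against 0.168 to 0.411 in the other untreated high fat libraries. The gene body of KRT86 overlaps that of KRT7 by 2887 bases on the same strand and that of KRT81 by 5622 bases on the opposite strand. The part of these overlaps in the values was not tested. KRT79, a type II keratin of skin glands that was not part of the read-sharing sets, had 5.14 CPM against 0.144 to 0.332. Libraries of the other groups held 0.505 to 3.30 CPM of KRT79. The library's keratinocyte markers summed to 4.57 CPM (2.39 to 2.66 in the other 3), its endothelial markers to 36.5 (16.9 to 22.5) and its fibroblast markers to 71.4 (96.2 to 98.4). Its median correlation with its own group was 0.972 (0.982 to 0.983 in the others), inside the 0.967 to 0.987 of all 16 libraries. Treated ketogenic libraries had 0.967 to 0.976. The part of these in the KRT7 and KRT81 values was not tested.

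Nestin, also picked for its diet-dependent response, was lowest in untreated high fat libraries, at 323, 346, 310 and 284 CPM. Treated high fat libraries held 468, 527, 566 and 569 CPM. Untreated ketogenic libraries held 528, 691, 544 and 426 CPM, and treated ones 365, 625, 592 and 547 CPM. All 12 libraries of the other groups lay above the untreated high fat group, and those 3 groups overlapped one another. The inhibitor difference was 0.75 (SE 0.16) on the high fat and -0.04 (SE 0.16) on the ketogenic diet, and the ketogenic effect minus the high fat effect was -0.79 (SE 0.22). The diet difference was 0.79 (SE 0.16) without inhibitors and 0.00 with them. The mean inhibitor effect was 0.36 (SE 0.11, edgeR adjusted p = 0.0197), with the same limit as for KRT6B. The mean diet effect was 0.40 (SE 0.11, edgeR adjusted p = 0.0821), a mean of 0.79 without inhibitors and 0.00 with them. It passed with DESeq2 (adjusted p = 0.0202), limma voom (0.00150), library size alone (0.0152), and without untreated ketogenic replicate 4 (0.0493) or treated ketogenic replicate 1 (0.0102). The same limit holds for all of these p-values, which are no independent evidence.

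**Figure D4:**
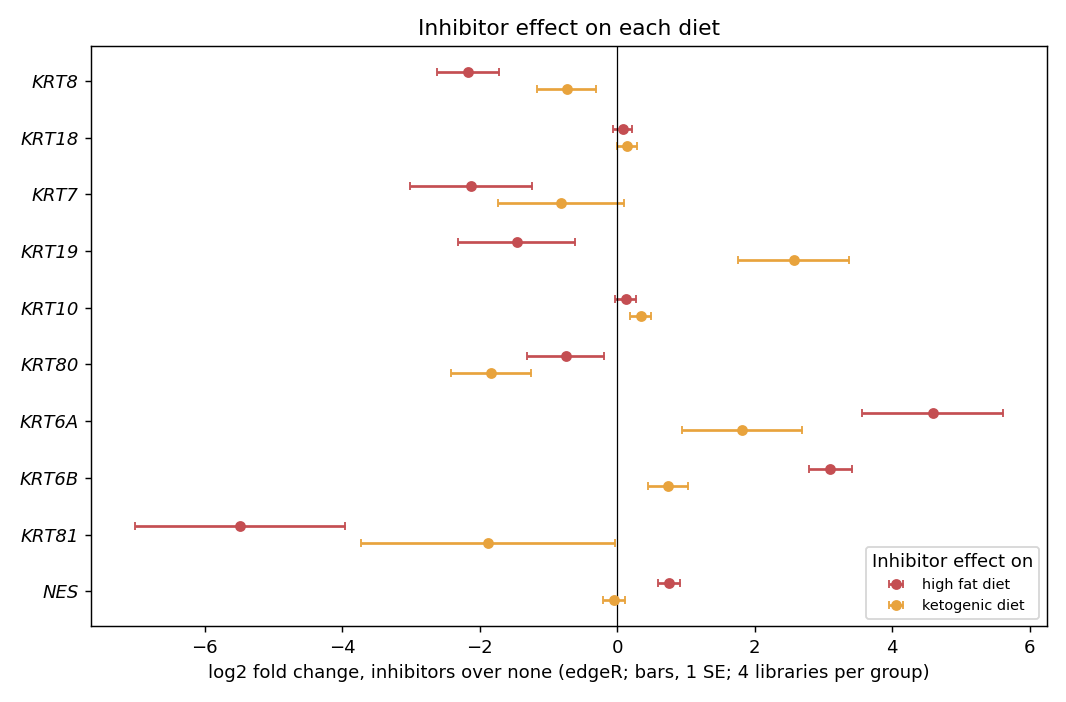
Log2 fold change of treated over untreated libraries for each gene on the high fat and the ketogenic diet, with bars of 1 SE (4 libraries per group). KRT6B (3.10 and 0.74) and NES (0.75 and -0.04) were chosen for the gap between their points; KRT81 and KRT7 on the high fat diet rest on 1 untreated library.

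The counts of genes past the test are set against the share over all genes tested. Among the 8 genes not picked for their response, 3 changed with the inhibitors on the high fat diet, where 42.3% of all genes did: KRT6A rose (20.6% of all genes rose) and KRT8 and KRT81 fell (21.7% fell). Treated and untreated libraries did not overlap in the same 3 (44.7% of all genes). Without untreated high fat replicate 4 the count was 2. KRT6A shares reads with the picked KRT6B, so its place in this count is not independent of the choice of genes. The median of the 8 was -1.11, against -0.03 over all genes tested. It takes in KRT7, KRT80 and KRT81, whose effects were -2.13, -0.75 and -5.49. Without untreated high fat replicate 4 these were 0.42, -0.15 and -1.25, and the median without that library was not computed. On the ketogenic diet 0 of 8 passed edgeR's test, where 1.74% of all genes did. There 3 (KRT10, KRT19 and KRT80) had an unadjusted p under 0.05, DESeq2 called 1 and limma voom 2. Over all genes DESeq2 called 880 in this comparison and edgeR 279, and the limma voom total is not given. Treated and untreated libraries did not overlap in 1 of the 8, KRT80 (10.3% of all genes).

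Of the same 8, edgeR called KRT81 between the diets without inhibitors (13.5% of all genes), while DESeq2 called 0 and limma voom called KRT8 and KRT6A but not KRT81. With inhibitors edgeR called 0 (0.169% of all genes; 1 gene, KRT19, had an unadjusted p under 0.05, and DESeq2 and limma voom called 0). Libraries of the 2 diets did not overlap in KRT8 alone without inhibitors (25.5% of all genes) and in 0 of 8 with them (7.14%). For the mean inhibitor effect 4 of the 8 genes not picked for their response passed, where 37.8% of all genes did, and 6 of 10 with KRT6B and NES, which the choice of genes favours. The 4 include KRT6A, which shares reads with the picked KRT6B and is not independent of that choice. KRT6A, KRT6B and NES rose (19.4% of all genes) and KRT8, KRT80 and KRT81 fell (18.4%). The mean effect on KRT8 was -1.45 (SE 0.31, edgeR adjusted p = 0.00262). For the mean diet effect 0 of 10 passed edgeR's test (0.956% of all genes), 3 had an unadjusted p under 0.05, and DESeq2 and limma voom called 1 and 2. Over all genes DESeq2 called 908 for this effect and edgeR 153, and the limma voom total is not given. The comparisons share libraries, so these counts are not independent of one another.

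A test of whether the inhibitors acted differently on the 2 diets was passed by 9.02% of all genes. The ketogenic effect minus the high fat effect is given for the other genes as a value alone: KRT8 1.43 (SE 0.61; 0.68 without treated ketogenic replicate 1), KRT6A -2.77 (SE 1.38), KRT19 4.03 (SE 1.17), KRT80 -1.09 (SE 0.80; -1.68 without untreated high fat replicate 4 and -0.64 without treated high fat replicate 2), KRT10 0.22 (SE 0.22) and KRT18 0.07 (SE 0.20). For KRT7 and KRT81 it was 1.31 and 3.61, and -1.23 and -0.64 without untreated high fat replicate 4. The KRT6A value was -4.37 with limma voom and -6.01 without that library, where the other 3 were at 0 and a fitted value depends on the prior count.

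KRT8 and NES deviated from their group means in opposite directions in 13 of 16 libraries: in 4 of 4 in each treated group, 3 of 4 in untreated ketogenic and 2 of 4 in untreated high fat libraries. Among treated ketogenic libraries, replicate 1 had the most KRT8 (24.2 CPM) and the least NES (365 CPM). Among untreated ketogenic libraries, replicate 4 likewise had the most KRT8 and the least NES, and replicate 2 the least KRT8 and the most NES. Over 16 libraries, Pearson's r of log2 CPM after removal of the group means was -0.92 and Spearman's rho -0.85. Permutation of libraries within groups gave p = 0.00104 for r and 0.00215 for rho, and 0.0234 and 0.0967 after adjustment over the 45 pairs of the 10 genes. Without the 2 libraries farthest from the median of NES, r was -0.82. Both values of a library share its depth and scaling. The summed fibroblast markers were 70.6 CPM in treated ketogenic replicate 1 (others 44.3 to 51.6) and 51.2 CPM in untreated ketogenic replicate 2 (others 77.2 to 81.7). In the same libraries leukocyte markers summed to 68.1 (others 43.9 to 64.1) and 48.0 CPM (others 47.4 to 77.2). Lung epithelial markers summed to 13.96 (others 9.11 to 11.6) and 13.1 CPM (others 13.4 to 14.1). Endothelial markers summed to 31.9 (others 28.1 to 48.3) and 37.7 CPM (others 27.2 to 34.2). The part of these lists in the correlation was not tested. The only other pair with an adjusted p under 0.05 for r was KRT6A with KRT6B (r = 0.80, adjusted 0.0234; rho 0.68, adjusted 0.0976), which share reads. KRT8 and KRT18, which also share reads, had a within-group r of 0.55 (permutation p = 0.124, adjusted 0.397) and a rho of 0.35. Without treated ketogenic replicates 1 and 2 their r was 0.10.

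**Figure D5:**
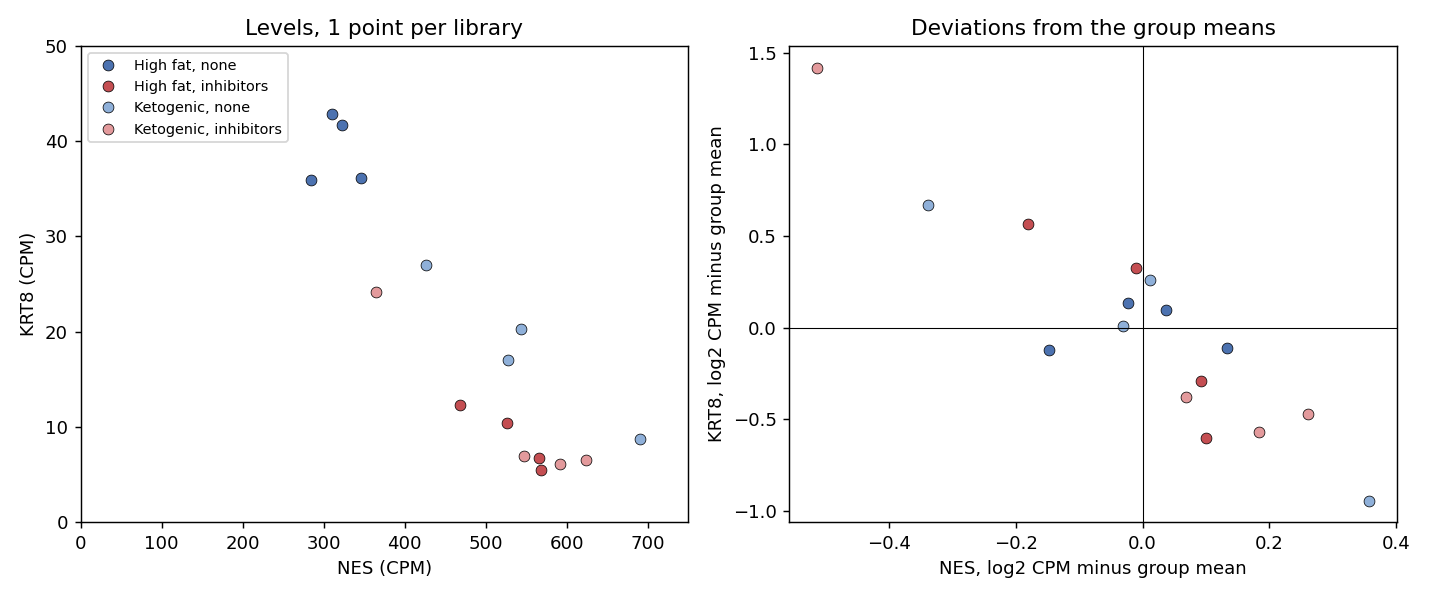
KRT8 against NES, 1 point per library: levels in CPM at left, and at right log2 CPM minus the mean of the library's group. KRT8 and NES deviated in opposite directions in 13 of 16 libraries (r = -0.92), in untreated high fat libraries in 2 of 4 only, with treated ketogenic replicate 1 at one end and untreated ketogenic replicate 2 at the other.

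The other keratins gave few measurable genes. Of 47 symbols 9 passed the low-count filter, and on the high fat diet 4 of the 9 rose with the inhibitors and 0 fell (20.6% and 21.7% of all genes, 42.3% in either direction; the same shares apply to the lists that follow). KRT12, a keratin of the cornea, rose from 1.43 to 4.32 CPM (log2 1.59, SE 0.24, edgeR adjusted p = 0.000138). KRT75, a keratin of the hair follicle next to KRT6B on the chromosome, rose by 3.52 (SE 0.90), from 0 to 0.280 CPM in untreated to 0.273 to 1.90 CPM in treated libraries. KRT14, the type I keratin of basal epidermis and a partner of KRT5, had no counts in untreated and 0.0364 to 0.511 CPM in treated libraries, and KRT23 was the fourth. KRT5 (1.59, SE 0.80) and KRT17 (-0.51, SE 0.60) did not pass, and KRT1 and KRT16 were under the filter. On the ketogenic diet 0 of the 9 passed, and KRT12 came nearest at 0.81 (SE 0.24, edgeR adjusted p = 0.0875).

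Of 12 tested non-keratin filament genes, 4 rose and 3 fell on the high fat diet, 7 in all where 42.3% of all genes changed. The nuclear lamin LMNB2 rose by 0.98 (SE 0.17) and LMNA by 0.82 (SE 0.15). SYNC, the muscle filament protein syncoilin, rose by 1.21 (SE 0.28) on the high fat and by 1.22 (SE 0.28) on the ketogenic diet, where it was the only one of the 12 to pass. VIM had 0.10 (SE 0.14) and -0.15 (SE 0.14) and did not pass on either diet.

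Among 16 tested linker and junction genes, which tie filaments to desmosomes and other anchors, 2 rose and 5 fell on the high fat diet, 7 in all and near the 42.3% of all genes. The desmosomal cadherin DSC2 fell by 2.33 on the log2 scale (SE 0.30), and PKP4, a junction plaque protein, by 0.55 (SE 0.11). FAM83H, a protein that binds keratins, rose by 1.43 (SE 0.19). JUP, the plaque protein plakoglobin, fell by 0.87 (SE 0.24) on the high fat and by 1.02 (SE 0.24) on the ketogenic diet, where it was the only one of the 16 to pass.

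Of 15 tested transcription regulators of epithelial state, KLF5 rose and 4 fell on the high fat diet, a share under the 42.3% of all genes, and 0 passed on the ketogenic diet. ZEB1 and SNAI2, both repressors of epithelial genes, fell by 1.16 (SE 0.15) and 1.18 (SE 0.25). OVOL1, a repressor active in epidermal differentiation, fell from 0.316 to 0.00423 CPM. Of 19 neural crest and progenitor genes, a list to which nestin belongs by function, 0 rose and 5 fell on the high fat diet, a share under the 42.3% of all genes. TFAP2B, a neural crest transcription factor, fell by 1.18 (SE 0.18), the RNA-binding protein MSI1 by 1.52 (SE 0.25) and the Notch target HEY1 by 0.71 (SE 0.13). SOX11 was the only one of the 19 to pass on the ketogenic diet, where it fell by 0.64 (SE 0.16). Of 6 tested cornified envelope and wound genes, SPRR2D fell on the high fat diet and 0 passed on the ketogenic diet. The medians over the tested genes of the lists on the high fat diet were 1.59 for other keratins, 0.05 for other filament genes, -0.15 for linkers, 0.19 for regulators, 0.12 for neural crest genes and -0.11 for cornified envelope genes, beside -0.03 over all genes.

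Genes whose log2 CPM followed a member most closely over the 16 libraries were taken from 16011 others, as a description that includes the group differences. For KRT6B they were LPXN (r = 0.97, 45.2 to 121 CPM), MFSD5 (0.97) and NOXO1 (0.97), each highest in the treated high fat group. For NES they were HTATSF1 (0.98), TUBA1A (0.98, 74.5 to 204 CPM) and ACTL6A (0.97), each lowest in the untreated high fat group. For KRT81 they were SSR3 (0.86), FOXC1 (0.85) and ABCA10 (0.85), and for KRT7 they were ASS1 (0.92), FOXC1 (0.87) and CARD10 (0.86). The genes like KRT81 and KRT7 were each highest in untreated high fat replicate 4. There ASS1 had 10.4 CPM (at most 1.24 in the other 15 libraries) and ABCA10 66.5 CPM (at most 13.1). Correlations without that library were not computed.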

How the data were processed

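PolyA RNA was sequenced from 16 libraries, 4 per group. The deposited values are RSEM expected counts (estimated counts per gene symbol, unscaled). Tools named by the submitters' processing notes are RSEM 1.2.15 and Bowtie2 2.1.0, with build hg38, and per the labels' protocols libraries followed standard Illumina steps. The annotation, the strand setting and the handling of mouse reads were not given in the sources used here. Fractional values (13.0%) were rounded. Totals of 37.1 M to 77.3 M (M, mega) set the precision, and genes with few counts have the largest errors.

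Here counts were filtered with filterByExpr (16012 genes), TMM-scaled and fitted with edgeR 4.0.16 (R 4.3.3, limma 3.58.1) by robust quasi-likelihood, all 16 libraries in 1 model of group means. Two-sided tests were adjusted by Benjamini-Hochberg over all genes at 0.05, with no fold minimum. Standard errors came from the log2 fold change and the F statistic. KRT6B and NES were tested only on means over diets or treatments, which are orthogonal to the contrast that picked them but share its spread estimate. The genes and lists were chosen with earlier results of these data known. The text names the 10 genes, up to 3 of each list by smallest p in each inhibitor comparison, direct filament partners, paralogs of at least 1 CPM, and the 3 genes most like KRT6B, NES, KRT81 and KRT7. The lists hold further genes named only as exceptions or examples after their values were seen (KRT23, KLF5, LAMP3). Replicate numbers showed little pairing of the libraries (24 same-numbered pairs, r of deviations -0.15 to 0.21, 4 over 0.1). The median r was 0.018, against -0.0002 for different numbers, and pairing was not tested. The procedure was tested on simulated counts. Alternatives were DESeq2 1.42.0, RLE size factors, library size alone, no low-count filter or a stricter one, removal of ribosomal RNA genes, limma voom with quality weights, only the groups compared, a replicate block, summed paralogs and leaving out each library. The ratio of KRT8 to KRT18 and the pair correlations, tested with 100000 permutations, were added after the data had been seen. Coordinates and sequences are GENCODE 29 on GRCh38, the same build as hg38.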

Additional observations from a re-analysis of the deposited data

Results flagged for a closer look

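In 5 of the 40 combinations of gene and group, 1 library lay farther from the other 3 than Dixon's criterion at the 95% level allows. Chance flags about 1 in 20 such groups where values are normally distributed, which was not tested for these CPM. Of the 5, 3 were in untreated high fat replicate 4: KRT7 at 11.6 CPM (others 0.411 to 0.718), KRT81 at 16.3 CPM (others 0.168 to 0.282) and KRT6A at 0.0700 CPM (others at 0, so that any count in the fourth library would meet the criterion). KRT8 had 24.2 CPM in treated ketogenic replicate 1 (others 6.06 to 6.93). KRT6A had 0.625 CPM in treated ketogenic replicate 4 (others 0.0818 to 0.155), the library that also had the most KRT6B of its group.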

How the results depend on the processing

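Counts of the 10 genes past the test depended on the setting as follows. For inhibitors on the high fat diet (3 of 8) a filter of at least 1 CPM in 4 libraries left 1, and leaving out each library gave 2 to 4. For inhibitors on the ketogenic diet (0) DESeq2 and library size alone gave 1, limma voom 2, and leaving out a library 0 to 1. Over all genes DESeq2 called 880 there and library size alone 981, against 279 in the main fit. For the diets without inhibitors (1) DESeq2, library size alone, no filter, the 1 CPM filter and the replicate block gave 0, limma voom 2, and leaving out a library 0 to 2, with 8 of 16 such fits losing the call. For the mean inhibitor effect (6, where 37.8% of all genes passed) leaving out a library gave 5 to 7. These counts hold the picked KRT6B and NES, which the choice of genes favours. For the mean diet effect (0) DESeq2 and library size alone gave 1, limma voom 2, and leaving out a library 0 to 2. Over all genes DESeq2 called 908 for it and library size alone 1044, against 153 in the main fit. The diet count with inhibitors was 0 under every setting run. The fit with the replicate block also ended the KRT81 calls for inhibitors on the high fat diet (edgeR adjusted p = 0.101) and for the mean inhibitor effect (0.0747). Replicate numbers showed little pairing of the libraries, which was not tested. The cause of these shifts was not tested.

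Signs turned, under the settings run, only in effects that had not passed the test or were not tested. With limma voom this held for KRT18 with inhibitors on the ketogenic diet (-0.077), between diets without inhibitors for KRT7 (0.14) and KRT10 (0.10), with inhibitors for KRT8 (-0.10) and KRT10 (-0.054), for the mean diet effect on KRT80 (0.0072), and for the difference of effects in KRT7 (-1.05), KRT10 (-0.16) and KRT18 (-0.25). On library size alone it held between diets without inhibitors for KRT10 (0.078) and KRT18 (0.056), with inhibitors for KRT18 (0.13) and in their mean for KRT18 (0.093). The 1 CPM filter gave -0.0096 for KRT80 between diets without inhibitors, and summing the KRT6 genes gave -0.37 for the mean diet effect on KRT6A. Leaving out 1 library turned KRT7 with inhibitors on the high fat diet (range -2.64 to 0.42) and without inhibitors between diets (-2.68 to 0.24), KRT10 there (-0.14 to 0.080), KRT18 there (-0.16 to 0.010), KRT80 there (-0.20 to 0.60), KRT18 with inhibitors on the ketogenic diet (-0.028 to 0.26), KRT8 (-0.42 to 0.54) and KRT18 (-0.20 to 0.083) between treated diets, and KRT6A (-0.19 to 1.96) and KRT10 (-0.014 to 0.12) in the mean diet effect. It also turned the ratio of KRT8 to KRT18 between treated diets (-0.14 to 0.38) and the difference of effects in KRT7 (-1.23 to 1.82), KRT18 (-0.11 to 0.18) and KRT81 (-0.64 to 4.04).

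Library size alone moved the median of all genes to 0.25, 0.28, 0.15 and 0.19 in the 4 simple comparisons and the share of higher calls from 48.7 to 79.8% and from 49.1 to 93.4% for the inhibitors on the high fat and ketogenic diets, and from 59.2 to 91.4% for the untreated diets. Depth limits KRT6A, KRT19 and KRT81 most, which had under 50 estimated counts in all libraries but 1.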
